A study of Mus musculus with 12 samples.

Results

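The combined treatment of B16-OVA tumours, 20 Gy of radiation given together with a fusion protein, was compared with no treatment across all genes. The 6 libraries of this comparison, 3 combined and 3 untreated, were taken from the 12 libraries of the series by their treatment labels, and 18274 genes of 55401 gene identifiers were counted highly enough to be tested. The B16-OVA line is a mouse melanoma made to carry ovalbumin as a model antigen. All mice were wild type (WT) and had borne tumours for 10 days when treatment began. The combined group had 20 Gy at day 10 with 20 mcg of fusion protein, and a further 10 mcg at day 14. The untreated group had neither, the fusion protein group had the 2 protein doses alone and the 20 Gy group had radiation alone, with 3 libraries in each. From all of them, live cells with CD45 (a leukocyte surface protein) and CD11c on their surface were sorted at day 17, and their total RNA was sequenced. The labels do not give the parts of the fusion protein, the age of the mice, or whether libraries of one group came from separate mice, so the p-values measure the spread between these libraries, which may be partly technical. The series' title names the chemokine CCL22 and a regulatory program of dendritic cells in resistance to radiation.

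CD11c, the product of Itgax, is carried by dendritic cells, the cells that take antigen from a tumour to lymph nodes and show it to T cells, and also by many macrophages, some monocytes and activated lymphocytes. Type I interferons bind one receptor on nearly every cell type and switch on genes whose promoters hold the interferon-stimulated response element. The products of these genes sense and block viruses, and in dendritic cells the same signal is known to support the display of tumour antigen to cytotoxic T cells. Interferon gamma comes mainly from T and NK cells and acts through a different element, the gamma-activated site.

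The sorted cells had the markers of the gate in every library. Ptprc, which encodes CD45, had normalized counts of 47792, 35302 and 37567 in untreated libraries 1 to 3 and of 46313, 43510.3 and 38593 in combined libraries 1 to 3. Itgax had 9497, 4054 and 5560.4 in the untreated and 6540.0, 4007 and 4491 in the combined libraries. Both markers overlapped between the groups, with log2 differences of 0.10 ± 0.25 (SE) for Ptprc and -0.29 ± 0.43 (SE) for Itgax. All counts below are DESeq2-normalized counts as deposited, and each log2 fold change is on the scale of log2(normalized count + 1), which understates the change of genes with low counts. Libraries held 14462032 to 23985496 reads in genes. Untreated libraries 1 to 3 had at least 1 read for 12.6%, 5.02% and 21.3% of 1754 chemosensory receptor genes (olfactory, vomeronasal and trace-amine types), known from sensory neurons, and combined libraries 1 to 3 for 57.7%, 13.6% and 39.7%. Mitochondrial genes took 8.26% to 9.27% of reads in untreated and 10.7% to 14.3% in combined libraries. The part of these differences in the results was not tested beyond a fit that holds the level of these receptor genes as a covariate, given below.

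In the combined group, 50 of 53 measured type I interferon response genes rose, and a smaller set of genes led by the lectin receptor Cd209a fell. In the limma fit with Benjamini-Hochberg adjustment at 0.05, 256 genes passed the threshold (1.4% of those tested). Of these, 221 rose (1.21%) and 35 fell (0.192%). The rises were the larger changes, with a median of 2.58 on the log2 scale against a median of -1.71 among the falls, and 189 of the 221 rises and all 35 falls were protein coding. The median log2 difference of all genes was 0.02. Without combined library 1 or 3 the count dropped to 98 and 93, without untreated library 2 or 3 to 129 and 168, and without both combined libraries 1 and 3 only 5 genes passed, 4 that rose (0.0219%) and 1 that fell (0.00547%). With the replicate number as a block, which pairs same-numbered libraries, 958 genes rose (5.24%) and 455 fell (2.49%), and all 256 genes were among them. The labels do not say what a number shares, and the pairing was inferred from these same data.

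**Figure D1:**
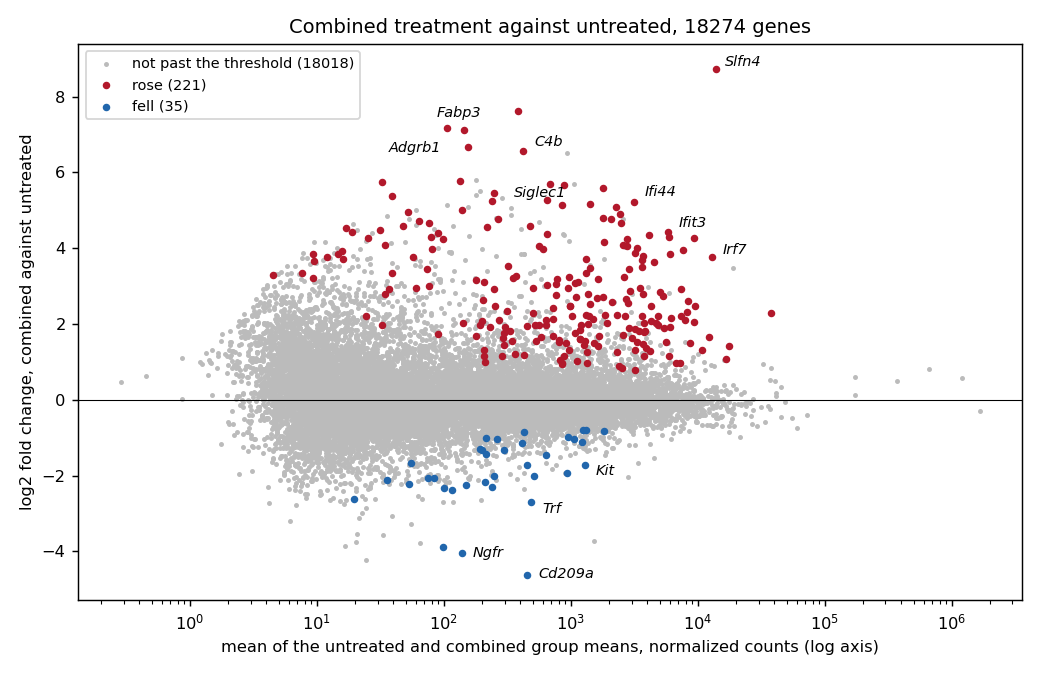
Log2 fold change of combined against untreated (vertical axis) for each of 18274 genes, against the mean of the untreated and combined group means in normalized counts (log axis). Red points are the 221 genes that rose and blue points the 35 that fell; Slfn4 at 8.72 and Cd209a at -4.62 lie farthest out among the labelled genes.

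Of the 221 rises, 50 belong to the type I interferon response list, 76 to any of the 44 lists described here and 145 to none. Of the 53 measured genes of the type I interferon list, 50 rose and none fell, beside 1.21% of all genes that rose, and the list's median was 3.20 on the log2 scale. The 3 that did not pass were Ifi205 at 2.98, Bst2 at 1.67 and Epsti1 at 0.86, and with the replicate block all 53 passed as higher, beside 5.24% of all genes. In all 53 genes, every combined value lay above every untreated value, beside 10.3% of all genes. The summed level of the list ran from 51788 to 55318 in the untreated and from 281075 to 456603 in the combined libraries. Between 38 and 49 of the 53 passed when any one of the 6 libraries was left out, 47 passed by edgeR on the recovered reads (beside 0.919% of all genes that rose and 0.175% that fell) and 51 with the receptor covariate, and 3 passed without combined libraries 1 and 3.

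The start regions of 5 named genes that rose are shown, chosen for the most matches to the response element that the interferon signal acts through. They are the 250 bases before the RefSeq start in GRCm38.p6, on the gene's strand, with matches to GAAA, any 2 bases and GAAA, or on the other strand TTTC, any 2 bases and TTTC, in capitals. The first 2 belong to neighbouring copies on chromosome 19, chr19:34607707-34607956 for Ifit3b and chr19:34583279-34583528 for Ifit3. The others lie at chr5:120887614-120887863 for Oas1g, chr5:120777660-120777909 for Oas3 and chr11:58214727-58214976 for Irgm2.
Ifit3b: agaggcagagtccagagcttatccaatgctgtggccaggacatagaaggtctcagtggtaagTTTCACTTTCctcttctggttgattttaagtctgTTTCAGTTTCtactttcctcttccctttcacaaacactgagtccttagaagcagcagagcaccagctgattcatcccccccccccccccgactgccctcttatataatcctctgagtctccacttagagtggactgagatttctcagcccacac
Ifit3: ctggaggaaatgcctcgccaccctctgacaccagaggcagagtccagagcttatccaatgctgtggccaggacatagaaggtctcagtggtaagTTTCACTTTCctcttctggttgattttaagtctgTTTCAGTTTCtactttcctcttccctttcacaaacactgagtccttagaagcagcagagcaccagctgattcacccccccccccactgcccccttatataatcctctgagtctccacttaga
Oas1g: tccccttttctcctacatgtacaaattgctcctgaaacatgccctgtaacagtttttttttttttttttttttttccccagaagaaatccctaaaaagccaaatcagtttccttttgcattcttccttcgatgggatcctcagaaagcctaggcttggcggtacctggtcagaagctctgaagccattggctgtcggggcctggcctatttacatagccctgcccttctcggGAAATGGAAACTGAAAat
Oas3: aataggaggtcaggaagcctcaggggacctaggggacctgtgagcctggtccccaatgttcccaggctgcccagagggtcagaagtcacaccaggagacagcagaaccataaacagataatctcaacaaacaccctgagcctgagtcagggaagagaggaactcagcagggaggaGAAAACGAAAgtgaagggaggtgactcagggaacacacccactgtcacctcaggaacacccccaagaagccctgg
Irgm2: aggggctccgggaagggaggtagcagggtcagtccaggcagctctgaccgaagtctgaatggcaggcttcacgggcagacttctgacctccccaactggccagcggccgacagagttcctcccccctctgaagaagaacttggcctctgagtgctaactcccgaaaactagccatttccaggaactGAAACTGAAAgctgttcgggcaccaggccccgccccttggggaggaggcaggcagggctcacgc
Ifit3b and Ifit3 each held 2 separate matches, the nearer to the start beginning at base -154 and at base -122 of the gene start. The 2 matches of Oas1g overlapped and began at bases -18 and -12. Irgm2, of the interferon gamma list below, also held 1 match of the gamma-activated site, which is not in capitals. Slfn4, Ifi44, Irf7, Ddx58 and Ifih1 also rose and held no match of this spelling in the 250 bases. Other spellings of the element and other positions were not searched. Across the genes that rose, 43 of 190 windows (22.6%) held a match of the response element's spelling. The share was 40.5% (17 of 42 windows) for risen genes of the type I interferon list and 17.6% (26 of 148) for the other risen genes. It was 2.9% (1 of 34 windows) for the genes that fell and 2.8% (421 of 14789) for all genes tested. The gamma-activated site, TTCNNNGAA (N is any base; it reads the same on both strands), was found in 10.0% of windows of genes that rose, in 0 of 34 windows of genes that fell and in 6.1% of those of all genes tested. None of its matches in genes that rose overlapped a match of the other element. A match gives the letters only and was not tested as a binding site.

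Slfn4 (chromosome 11, 83175186 to 83190216, plus strand), a Schlafen family member of myeloid cells, had the largest rise of the named genes. It had 108, 39.9 and 41.4 normalized counts in untreated libraries 1 to 3 and 34270.5, 11147 and 37381 in combined libraries 1 to 3. Combined library 2 was the lowest of its group and still far above all untreated values. The log2 fold change was 8.72 ± 0.92 (SE), with an adjusted p of 0.000718 by limma, and the call held without any one of the 6 libraries. The single treatments stood at 7.04 for fusion protein and 3.82 for 20 Gy against the same untreated libraries.

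Among the antiviral effectors, Ifit3b, of the Ifit family, had 219, 115 and 114 in untreated and 4112, 3047 and 4765 in combined libraries. Its change was 4.77 ± 0.34 (SE) with an adjusted p of 9.78e-05 by limma. Ifit3, its near-identical neighbour, went from 584, 555 and 400.4 to 11990.5, 8293 and 13094, a change of 4.43 ± 0.37 (SE). Reads of these 2 copies could be split between them in counting, so each single value is uncertain. Oas3, a synthetase that activates RNA decay on sensing double-stranded RNA, had 413, 542 and 539 in untreated and 7289, 5718 and 7711 in combined libraries, a change of 3.79 ± 0.28 (SE). Oas1g, of the same family and also with close copies, went from 80.9, 11.2 and 78.6 to 2070.3, 801 and 2093, a change of 5.14 ± 0.76 (SE). Untreated library 2 was the lowest for Oas1g and combined library 2 the lowest of its own group, and the groups did not overlap. Ifi27l2a, a small interferon-induced protein, had the tightest untreated values of these genes, 579, 572 and 589.7, beside 7777, 4989 and 7359 in combined libraries, a change of 3.50 ± 0.25 (SE). Ifi44 had 131, 135 and 212 in untreated and 7703, 4071 and 6486 in combined libraries, a change of 5.23 ± 0.45 (SE) with an adjusted p of 0.000329.

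Siglec1, the sialic acid receptor CD169 of macrophages and monocytes under interferon, rose from 112, 34.9 and 84.8 to 3659, 1422 and 3149, a change of 5.18 ± 0.53 (SE). Irf7, the transcription factor that amplifies type I interferon production, rose from 1434, 1861 and 1965 to 26922, 18116 and 26654, a change of 3.76 ± 0.36 (SE). The calls of Ifit3b, Ifit3, Oas3, Oas1g, Ifi27l2a, Ifi44, Siglec1 and Irf7 held without any one of the 6 libraries. In the list of 13 interferons and their receptors, Ifna1, Ifna2, Ifna4, Ifnb1, Ifnl2 and Ifnl3 were counted too low to be tested. The 7 measured genes gave no call, 4 were higher and 3 lower, and their median was 0.04.

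**Figure D2:**
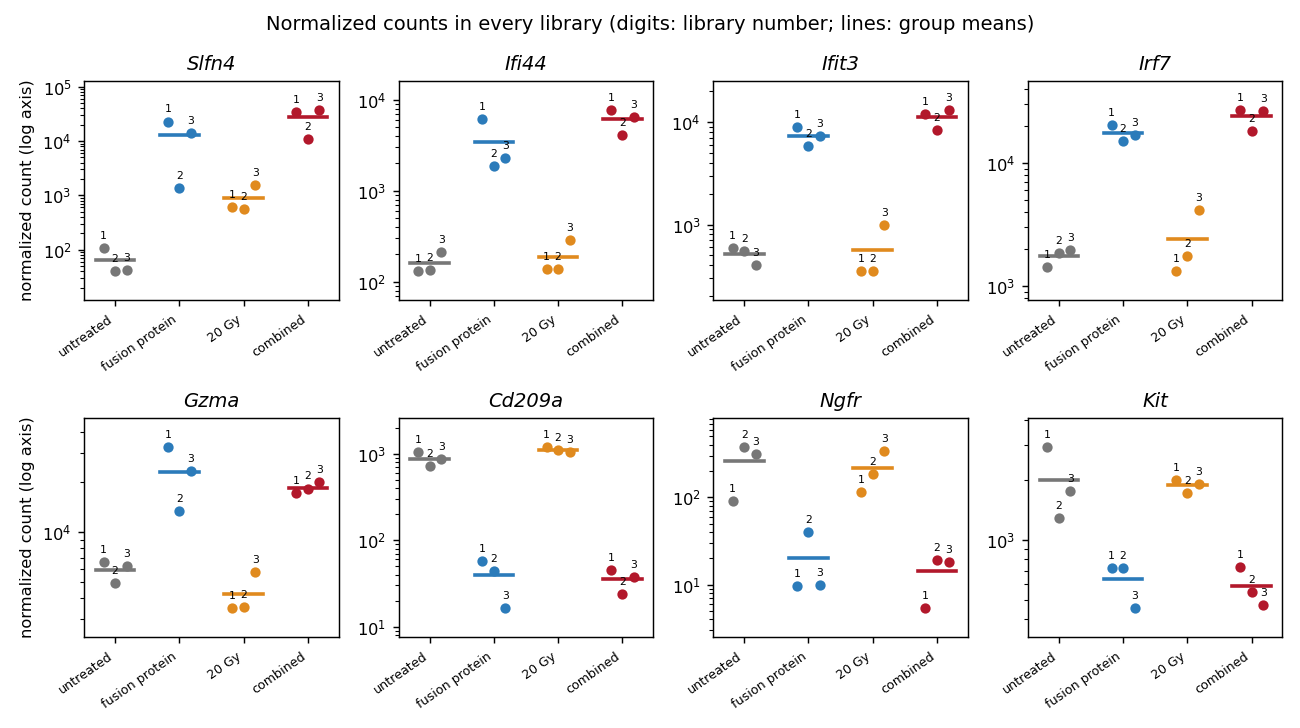
Normalized counts (log axis) of 8 genes in each of the 12 libraries, by group; digits give the library number and lines the group means. The combined libraries lie above all untreated libraries for Slfn4, Ifi44, Ifit3, Irf7 and Gzma and below them for Cd209a, Ngfr and Kit, and in each panel the combined mean is closer to the fusion protein mean than to the 20 Gy mean.

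Of 32 measured sensors of nucleic acid and microbes, 6 rose and none fell, 30 were higher and the median was 1.17. Of all genes tested, 1.21% rose and 51.3% were higher. With the replicate block 17 sensors passed as higher, beside 5.24% of all genes. Ddx58, which encodes the RNA sensor RIG-I, had 1652, 1621 and 1174 in untreated and 6907, 5330.0 and 5939 in combined libraries, a change of 2.04 ± 0.20 (SE) with an adjusted p of 0.000539. Ifih1, which encodes the RNA sensor MDA5, went from 1130.0, 664 and 994 to 6823, 4672 and 7962, a change of 2.80 ± 0.38 (SE). Zbp1, a sensor of Z-form nucleic acid that can start cell death, went from 926, 1023 and 1892 to 9554, 6753 and 10266, a change of 2.84 ± 0.40 (SE). Tlr9, the endosomal receptor for unmethylated CpG DNA, rose from 1433, 1398 and 1173 to 3457, 2345 and 3955, a change of 1.26 ± 0.22 (SE). Untreated and combined values did not overlap in any of these 4 genes. The Tlr9 call was lost without combined library 1 or 3 or untreated library 2 or 3, while the other 3 calls held in all 6 of these fits.

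The interferon gamma response list holds many GTPases that attack the vacuoles of intracellular microbes. Of 30 measured members, 6 rose and none fell, beside 1.21% of all genes that rose. The median was 1.65, and 26 were higher, beside 51.3% of all genes. Leaving out single libraries gave 2 to 6 calls, and the replicate block gave 19, all higher, beside 5.24% of all genes. Irgm2 had 407, 251 and 446 in untreated and 1749, 1365 and 1902 in combined libraries, a change of 2.21 ± 0.28 (SE). Gbp4 had 1849.7, 1927 and 2042 and 5639, 4403 and 6338, a change of 1.48 ± 0.20 (SE), and both genes passed without any one library. Gbp6 rose from 64.4, 152 and 337 to 1336, 1179 and 1632, a change of 3.19 ± 0.59 (SE). Tgtp2, which has a close copy, rose from 521, 716 and 1312 to 4055, 2732 and 4561, a change of 2.23 ± 0.42 (SE). Untreated library 3 was the highest of its group for Gbp6 and Tgtp2, and leaving out combined library 1 or 3 or untreated library 2 ended both calls. Leaving out combined library 2 also ended that of Gbp6, and leaving out untreated library 1 that of Tgtp2. Cxcl9, a chemokine for T cells that interferon gamma induces, was at 345, 328 and 1985 in untreated and 407, 774 and 750.1 in combined libraries. Its groups overlapped, with a change of 0.02 ± 0.78 (SE) and an adjusted p of 0.996.

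Class I molecules show peptides from inside the cell, and class II molecules show peptides that the cell has taken up. Of 24 class I presentation genes, 3 rose and none fell, 23 were higher and the median was 0.80, and 15 passed as higher with the replicate block. Of all genes tested, 1.21% rose without and 5.24% with the block. H2-T22, a non-classical class I molecule, rose from 1221, 1985 and 2377 to 7284, 6508 and 8465, a change of 2.04 ± 0.29 (SE) with an adjusted p of 0.00495. H2-T24 rose from 820.0, 801 and 395 to 3497, 3048 and 2601, a change of 2.24 ± 0.42 (SE). Nlrc5, the transactivator of class I genes, rose from 4043, 4348 and 5126 to 10148, 7029 and 9443, a change of 0.97 ± 0.20 (SE). H2-Q7 had 4506, 5446 and 7481 in untreated and 13386, 11132 and 12963 in combined libraries, a change of 1.13 ± 0.25 (SE) whose adjusted p was 0.0584 without and 0.00832 with the block. Class I genes share long stretches of sequence, so their single counts are uncertain. The H2-T22 call held without any one library, the Nlrc5 call was lost without any library other than combined library 2 and the H2-T24 call without any other than untreated library 1. Of 15 class II presentation genes none passed in either direction, 5 were higher, and the median was -0.47. With the block, 3 class II genes passed as higher. The difference between the 2 classes was not tested.

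**Figure D3:**
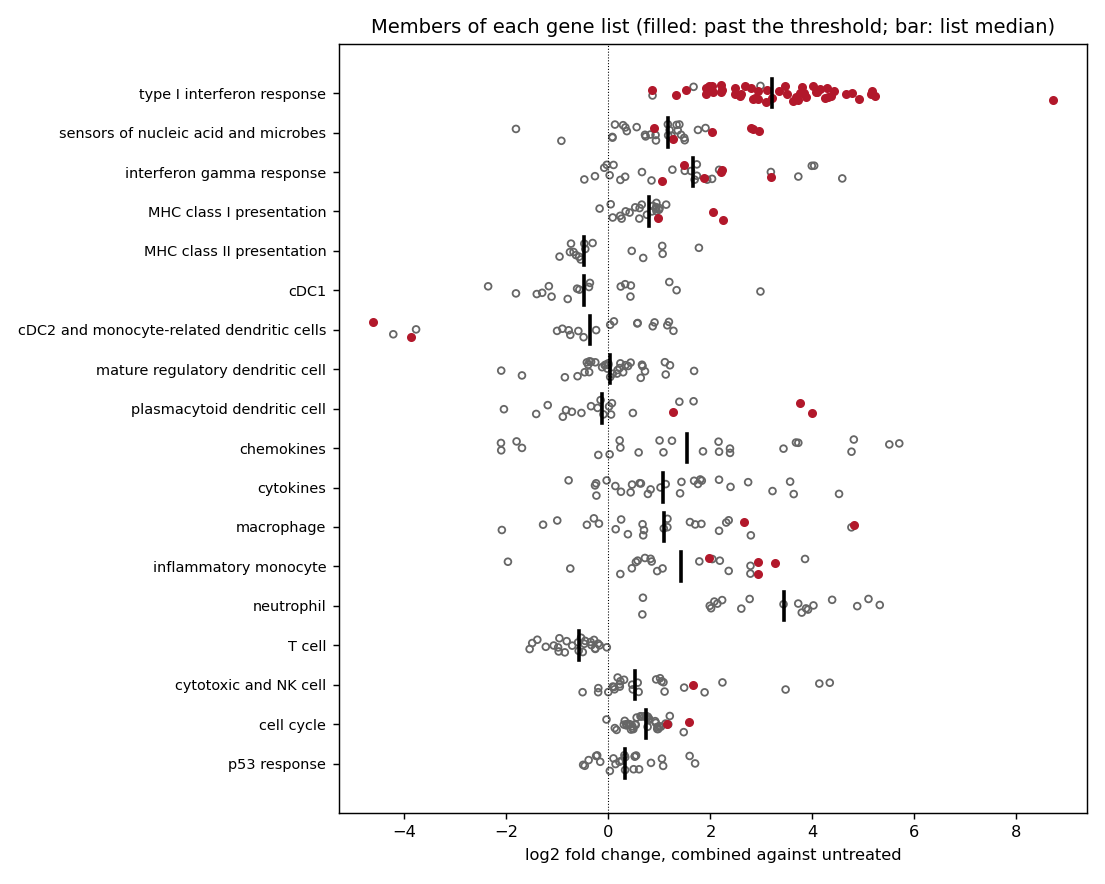
Log2 fold change of combined against untreated (horizontal axis) for the measured members of 18 gene lists, 1 list per line. Filled points passed the threshold, open points did not, and the black bar is the list's median; 50 of 53 type I interferon genes are filled, and the medians run from 3.43 for neutrophil markers to -0.58 for T cell markers.

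Several of the largest rises lay outside the interferon lists. Fabp3, a fatty acid carrier best known from heart muscle, had 1.498, 0 and 0 in untreated and 209, 109 and 320.2 in combined libraries. Its untreated values rest on 2 reads against 742 in the combined libraries, a ratio of 325 with a 95% counting interval from 89.7 to 2689. The fitted change was 7.17 ± 0.91 (SE) with an adjusted p of 0.00222. Adgrb1, an adhesion receptor that recognises dying cells, rose from 2.995, 3.74 and 0 to 282, 146 and 491, a change of 6.68 ± 0.93 (SE). Spon1, the matrix protein F-spondin, rose from 65.1, 17.5 and 258 to 4348, 1883 and 4237, a change of 5.58 ± 0.81 (SE). Combined library 2 was the lowest of its group for all 3 genes and stayed above the untreated values.

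Pde7b, a phosphodiesterase that breaks down cyclic AMP, rose from 67.4, 8.74 and 41.4 to 1474, 647 and 1665, a change of 5.26 ± 0.75 (SE). Nes, the intermediate filament protein nestin, rose from 3.74, 7.49 and 11.4 to 317, 148 and 346, a change of 5.003 ± 0.63 (SE). Aplnr, the apelin receptor, had 0.749, 0 and 2.07 in untreated and 105, 43.3 and 82.9 in combined libraries. The 3 untreated and 268 combined reads of Aplnr gave a ratio of 78.3 with a 95% counting interval from 26.5 to 382, which covers counting error only. Ltbp1, which holds latent TGF-beta in the matrix, rose from 17.2, 6.24 and 42.4 to 579.8, 315 and 641. Its change was 4.78 ± 0.72 (SE). Ltbp1 was the only gene of 20 in the TGF-beta response list that passed without the block, beside 1.4% of all genes. With the block 3 passed as higher and 2 as lower, beside 5.24% and 2.49% of all genes. Calls of Fabp3, Adgrb1, Spon1, Pde7b, Nes, Aplnr and Ltbp1 held without any one library.

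Prm1, a protamine that packs DNA in sperm, was at 0 in all 3 untreated libraries and at 58.4, 21.2 and 114 in combined libraries. Against a floor of 3 reads over the untreated group, this was at least 65.4-fold higher. The Prm1 call (adjusted p 0.0178) was lost without combined library 1 or 3 and without untreated library 2 or 3. The fusion protein libraries stood at 43.4, 3.04 and 52.7 and the 20 Gy libraries at 1.76, 0 and 0.

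Of 19 complement genes 3 rose, beside 1.21% of all genes. C4b, the fourth complement component, rose from 17.97, 0 and 27.9 to 902, 457 and 1128, a change of 6.57 ± 1.22 (SE), and the call was lost without any one combined library or without untreated library 2. Cfb, factor B of the alternative pathway, rose from 4.49, 7.49 and 16.6 to 217, 110.1 and 236, a change of 4.26 ± 0.58 (SE) that held without any one library. C3, at which the pathways meet, rose from 677, 505 and 807 to 1909, 1582 and 2286, a change of 1.55 ± 0.29 (SE) that was lost without combined library 1 or 3 or untreated library 1 or 2. The receptor C3ar1 had 4.49, 12.5 and 157 in untreated and 191, 442 and 1631 in combined libraries, with an adjusted p of 0.316 and of 0.00342 with the block.

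The falls were led by Cd209a, a DC-SIGN homologue of monocyte-related and type 2 conventional dendritic cells. It had 1035, 711 and 862 in untreated libraries 1 to 3 and 44.9, 23.6 and 37.1 in combined libraries 1 to 3. No combined value came near the untreated range. The change was -4.62 ± 0.41 (SE) with an adjusted p of 0.000329, and it held without any one library. In bulk counts, fewer cells of a type and less RNA per cell cannot be told apart. Cd209d, a neighbouring gene of the same family on chromosome 8, fell from 110.1, 334 and 101 to 6.29, 29.9 and 4.32, a change of -3.88 ± 0.78 (SE). Cd209e, the next of them, had 24.7, 66.2 and 48.6 in untreated and 2.697, 0 and 2.59 in combined libraries, a difference of -4.22 ± 0.92 (SE) with an adjusted p of 0.0518 without and 0.0171 with the block. The Cd209d call was lost without each library other than combined library 2.

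Other falls were spread over surface receptors and signalling proteins. Ngfr, the p75 neurotrophin receptor, fell from 90.6, 381 and 317 to 5.39, 18.9 and 18.1, a change of -4.05 ± 0.73 (SE). Trf, the iron carrier transferrin, fell from 1421, 352 and 801 to 109.7, 85.7 and 150.2, a change of -2.70 ± 0.51 (SE). Fgfr1, a receptor for fibroblast growth factors, fell from 425, 253 and 503 to 108, 47.2 and 87.2, a change of -2.29 ± 0.34 (SE) with an adjusted p of 0.00562. Kit, the receptor for stem cell factor, fell from 2943, 1289 and 1753 to 734, 547 and 473, a change of -1.71 ± 0.30 (SE). Values of the groups did not overlap in any of these genes. The Fgfr1 call held without any one library. Ngfr was lost without combined library 1 or 3 or untreated library 2 or 3, Trf without every library other than untreated library 2, and Kit without combined library 2 or 3.

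Gprc5c, an orphan receptor coupled to G proteins, fell from 119, 142 and 240.0 to 26.97, 24.4 and 46.6, a change of -2.31 ± 0.38 (SE) that was lost without combined library 1. Slc25a23, a carrier of the inner mitochondrial membrane, fell from 151, 283 and 156 to 38.7, 40.1 and 28.5, a change of -2.38 ± 0.41 (SE) that was lost without combined library 1 or 3 or untreated library 2. A further 5 genes of the 12 largest falls, the glutamate receptor Grm8, the transcription factor Zfp521, the small GTPase Rab6b, the signalling regulator Rgs7bp and St5, fell by 2.07 to 2.24 on the log2 scale. Each of these 5 calls was lost in at least 5 of the 6 fits without one library, whereas 3 of all 35 falls held in all 6. Of the 221 rises, 88 held in all 6 and 17 in none.

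**Figure D4:**
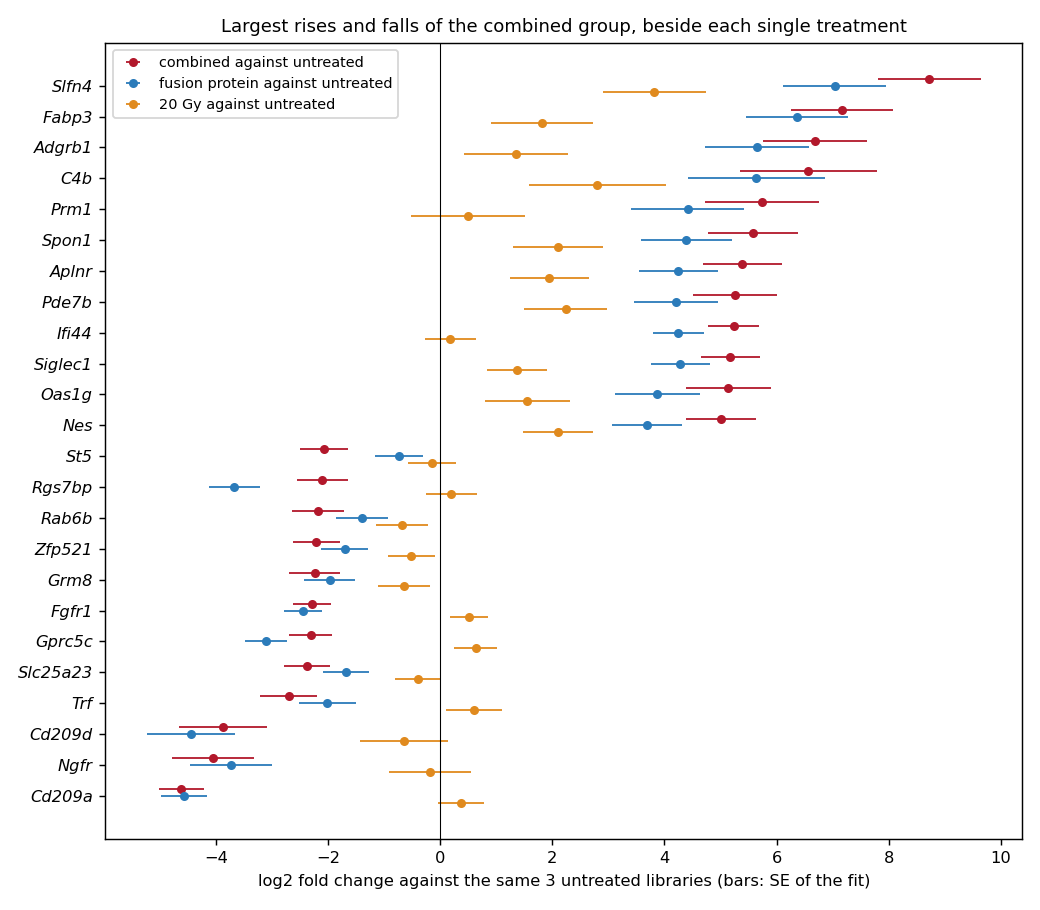
Log2 fold change against the same 3 untreated libraries (horizontal axis, bars are the standard error of the fit) for the 12 largest rises and 12 largest falls of the combined group that meet the naming rule, with the fusion protein and 20 Gy groups beside them. The 3 series share their untreated libraries; Slfn4 stands at 8.72, 7.04 and 3.82 and Cd209a at -4.62, -4.57 and 0.37.

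Dendritic cell marker lists held few calls. Of 18 markers of type 1 conventional dendritic cells none passed without the block, 7 were higher and the median was -0.48. With the block 3 passed as higher and 3 as lower, beside 5.24% and 2.49% of all genes. Xcr1, their chemokine receptor, had 664.2, 500.5 and 500.7 in untreated and 233, 222 and 172 in combined libraries, with an adjusted p of 0.297. Flt3, the growth factor receptor of dendritic cells, had 3690.3, 1776 and 1853 and 1606, 856 and 953, with an adjusted p of 0.347 without and 0.0355 with the block. In both genes the combined values lay below all untreated values, beside 7.52% of all genes. Of 20 markers of type 2 and monocyte-related dendritic cells, Cd209a and Cd209d fell and none rose, beside 0.192% of all genes that fell. With the block 5 of the 20 fell and 1 rose. Mgl2, a lectin of these cells, had 35.2, 126 and 203 in untreated and 17.1, 1.57 and 6.91 in combined libraries, with an adjusted p of 0.105 and, with the block, of 0.0183. Of 16 markers shared by dendritic cells 1 fell, which was Kit, and with the block 2 fell and 1 rose. The summed levels of these 3 lists overlapped between the groups, for example 30643 to 46989 in untreated and 32693 to 44591 in combined libraries for the type 1 markers.

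Of 20 plasmacytoid dendritic cell markers, 3 rose and none fell, beside 1.21% of all genes that rose. Of the 20, 9 were higher and the median was -0.13. With the block 5 rose and 1 fell, beside 5.24% and 2.49% of all genes. The 3 that rose without it were Irf7 and Tlr9, which are also interferon-responsive or sensor genes, and Sct. Sct, which encodes secretin, had 5.99, 7.49 and 13.4 in untreated and 134, 135 and 185 in combined libraries, a change of 3.99 ± 0.69 (SE) with an adjusted p of 0.0165, lost without any one combined library or untreated library 2. Tlr7 had 1199.7, 690.2 and 871 and 2677, 2147 and 2263, a difference whose adjusted p was 0.0653 without and 0.00171 with the block. Siglech, a defining surface marker of these cells, was lower rather than higher, with 1615, 5125 and 5755 in untreated and 2029, 1475 and 1337 in combined libraries. Its groups overlapped and its adjusted p was 0.353.

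The list of mature regulatory dendritic cells, named for a state of these cells that limits T cell responses, gave no call among 35 genes. Of these, 18 were higher and 17 lower, and the median was 0.03, beside 0.02 for all genes. With the block 5 passed as higher, beside 5.24% of all genes. Ccl22, which draws regulatory T cells, had 123, 417 and 658 in untreated and 16.2, 185 and 134 in combined libraries. The combined values were lower on average but overlapped the untreated range, with a difference of -2.10 ± 1.44 (SE) and an adjusted p of 0.623 (0.111 with the block). Its neighbour on chromosome 8, Ccl17, had 0, 21.2 and 26.9 and 2.697, 3.93 and 0, with an adjusted p of 0.703. Ccr7, the receptor for migration to lymph nodes, had 866, 2378 and 2269.7 and 509, 1699.6 and 2044. Fscn1, which bundles actin in mature dendritic cells, had 762, 1832 and 1930.4 and 452, 1739 and 1558. Both overlapped between groups, with differences of -0.47 ± 0.97 (SE) and -0.38 ± 0.97 (SE), and both turned positive without combined library 1 (0.16 and 0.24).

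Cd274 (PD-L1), the ligand of the checkpoint receptor PD-1, had 1734, 1137 and 3072 in untreated and 2321, 3408 and 7654 in combined libraries. Its difference of 1.11 ± 0.72 (SE) had an adjusted p of 0.598 without and 0.0229 with the block. Il12b, the shared subunit of interleukins 12 and 23, had 130.3, 51.2 and 512 and 97.1, 184 and 477, with an adjusted p of 0.934. Of 24 genes of coinhibition 1 rose (3 with the block), beside 1.21% of all genes (5.24% with the block). The gene was Lgals9, which encodes galectin 9. It rose from 750.3, 1478 and 1499 to 3858, 3597 and 4195, a change of 1.71 ± 0.36 (SE) that was lost without any one of the 6 libraries. Foxp3, the factor of regulatory T cells, had 51.7, 629 and 311 in untreated and 24.3, 222 and 52.7 in combined libraries, with an adjusted p of 0.623 and of 0.0346 with the block. The 16 regulatory T cell markers gave no call, with 3 higher and a median of -0.89. With the block 4 of them fell, beside 2.49% of all genes.

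Most measured genes of the chemokine and cytokine lists had higher fitted values, and none of these passed the threshold without the block. Of 24 chemokines none passed, 19 were higher and the median was 1.55. With the block 7 passed as higher, beside 5.24% of all genes. Ccl2, the chemokine for monocytes, had 14.98, 4.99 and 292 in untreated and 958, 1021 and 4029 in combined libraries. Ccl12, of the same family, had 0, 3.74 and 35.2 and 91.7, 215 and 805, and Cxcl10, which attracts activated T cells, had 67.4, 87.4 and 1494 and 2355, 1700.4 and 5181. In these 3 genes every combined value lay above every untreated value, with untreated library 3 far above its group. The groups were separated in this way in 6 of the 24 chemokines, beside 10.3% of all genes. For Ccl2, Ccl12 and Cxcl10 the adjusted p-values by limma were 0.22, 0.158 and 0.302 without and 0.00136, 0.000277 and 0.00554 with the block.

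Of 28 cytokines none passed, 23 were higher and the median was 1.07. With the block 9 passed as higher, beside 5.24% of all genes. Il27, a cytokine of myeloid cells that shapes T cell responses, had 35.9, 0 and 5.17 in untreated and 150.1, 77.9 and 230.5 in combined libraries. Il15, which sustains NK and memory T cells, had 158, 81.1 and 97.2 and 321, 241 and 540.3. Il18 had 160.3, 29.95 and 40.3 and 374, 214 and 370.3, and its soluble inhibitor Il18bp had 139, 83.6 and 108 and 263, 289 and 754. All combined values of these 4 genes lay above the untreated ones. This held for 7 of the 28 cytokines, beside 10.3% of all genes. For Il27, Il15, Il18 and Il18bp the adjusted p-values by limma were 0.0716, 0.118, 0.0925 and 0.0848 without, and 0.00444, 0.00788, 0.0029 and 0.00423 with the block.

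Of 25 macrophage markers 2 rose and none fell, beside 1.21% of all genes that rose. Of the 25, 19 were higher and the median was 1.08. With the block 6 rose, beside 5.24% of all genes. Fcgr1, the high-affinity IgG receptor, rose from 118, 29.95 and 394 to 3576, 1819 and 4885, a change of 4.81 ± 0.96 (SE), and Axl, a receptor for the uptake of dying cells, rose from 1585, 341 and 614 to 5529.6, 2816 and 5439, a change of 2.66 ± 0.48 (SE). The Fcgr1 call was lost without any library other than untreated library 3, and the Axl call without combined library 1 or 3 or untreated library 2 or 3. Other defining macrophage markers did not pass: Mrc1 had 1474, 44.9 and 463.5 in untreated and 69.2, 33.8 and 166 in combined libraries, and Adgre1 had 1486, 249.6 and 337 against 488, 269 and 526. Of 22 markers of inflammatory monocytes 4 rose and none fell, beside 1.21% of all genes that rose. Of the 22, 20 were higher and the median was 1.42. With the block 9 rose and 1 fell, beside 5.24% and 2.49% of all genes. Ms4a4c rose from 953, 634 and 790.4 to 7044, 3977 and 7733, a change of 2.94 ± 0.34 (SE) that held without any one library. Ly6c2, the surface marker Ly6C of these monocytes, rose from 659.7, 2287 and 2885 to 13719, 9155 and 15265, a change of 2.93 ± 0.55 (SE). Hp, haptoglobin, and Plac8 rose by 3.26 and 1.97. Calls of Ly6c2, Hp and Plac8 were lost without combined library 1 or 3 or untreated library 2, that of Hp also without untreated library 3 and that of Plac8 also without untreated library 1 or 3. Ms4a4c and Ly6c2 are also in the type I interferon list. The summed level of the monocyte markers was 28365 to 58747 in untreated and 57832 to 89703 in combined libraries.

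Levels of several markers of cells outside the dendritic lineage differed between the groups, and their part in the results above was not tested. All 19 measured neutrophil markers were higher, with a median of 3.43, beside 51.3% of all genes, and none passed. With the block 12 passed as higher, beside 5.24% of all genes, and without untreated library 1 there were 5. The summed level ran from 477 to 3659 in untreated and from 4405 to 13355 in combined libraries, without overlap, and no marker was at 0 in all libraries of either group. Cxcr2, the chemokine receptor of neutrophils, had 50.9, 2.496 and 12.4 in untreated and 236, 149 and 234 in combined libraries, with an adjusted p of 0.0544 without and 0.00422 with the block. Csf3r, their growth factor receptor, had 659, 88.6 and 206 and 1914, 712 and 2016, with an adjusted p of 0.139 without and 0.00471 with the block. Untreated library 2 had the lowest counts of both.

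T cell markers were all lower in fitted value, 25 of 25, with a median of -0.58, and none passed. With the block 4 fell, beside 2.49% of all genes. Their summed level ran from 18126 to 83466 in untreated and from 16130.2 to 48239 in combined libraries and overlapped. Of 28 cytotoxic and NK cell markers 1 rose (5 with the block), beside 1.21% of all genes (5.24% with the block). Of the 28, 24 were higher and the median was 0.53. Their summed level was 43192 to 66793 in untreated and 84940.1 to 127277 in combined libraries. Gzma, granzyme A, rose from 6594, 4904 and 6227 to 17274, 18355 and 20101, a change of 1.66 ± 0.31 (SE) with an adjusted p of 0.0213, lost without any library other than untreated library 1. Gzmb, granzyme B, had 1465, 1997 and 7794 in untreated and 20161, 31130.4 and 49807 in combined libraries, with an adjusted p of 0.0979 without and 8.05e-05 with the block. No combined library overlapped the untreated ones for either granzyme.

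Lists of B and plasma cells, red cells, melanoma and fibroblasts with endothelium held no call. Their members were higher in 19 of 23, 9 of 10, 12 of 14 and 11 of 14 genes. With the block 1 B and plasma cell marker and 2 of fibroblasts and endothelium passed as higher, beside 5.24% of all genes. The summed level of melanoma markers was 468 to 3052 in untreated and 739 to 2162 in combined libraries. That of fibroblast and endothelium markers was 2945 to 3849 in untreated and 4562 to 6610 in combined libraries, without overlap. Of 8 mast cell and basophil markers only Kit passed without the block, as a fall, beside 0.192% of all genes. With the block 3 of them rose and 1 fell, beside 5.24% and 2.49% of all genes. Hdc, which makes histamine, had 127, 9.98 and 80.7 in untreated and 382, 189.5 and 709 in combined libraries, with an adjusted p of 0.288 without and 0.00927 with the block. Mcpt8, a basophil protease, had 6.74, 0 and 0 and 24.3, 13.4 and 12.9, with an adjusted p of 0.313 without and 0.0457 with the block.

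**Figure D5:**
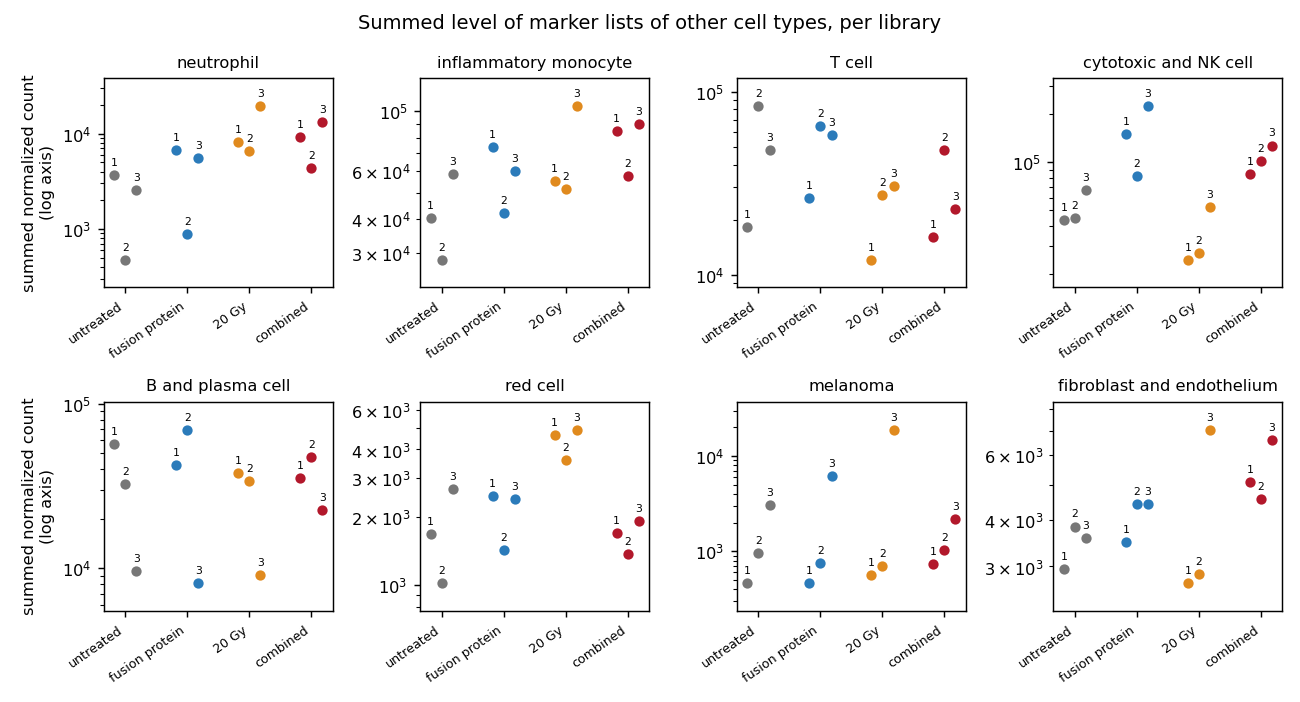
Summed normalized count (log axis) of 8 marker lists of other cell types in each library, by group; digits give the library number. Neutrophil markers run from 477 to 3659 in untreated and from 4405 to 13355 in combined libraries, while the T cell lists of the 2 groups overlap.

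Genes of the cell cycle were higher in 38 of 39, beside 51.3% of all genes. The median was 0.74 and 2 rose, beside 1.21% of all genes. Cdc45, which loads the replication helicase, had 121, 119.8 and 144 in untreated and 274, 281 and 299 in combined libraries, a change of 1.15 ± 0.23 (SE). Tpx2, a spindle assembly factor, had 362, 466 and 374 and 1105, 973 and 1579, a change of 1.58 ± 0.34 (SE). In 25 of the 39 genes the groups did not overlap, beside 10.3% of all genes. No call of this list held when any one library was left out, and 15 passed as higher with the block, beside 5.24% of all genes. Of 24 genes of the p53 response, the pathway of DNA damage, none passed without the block and 4 rose with it, 18 were higher and the median was 0.32. Radiation was given at day 10 and cells were collected at day 17. Of 34 ribosomal protein genes none passed and 3 were higher, with a median of -0.29, and 1 fell with the block. Among the remaining lists, the 22 measured genes of lysosomes, 18 of lipid handling and 14 of costimulation had no call without the block. With it 6, 4 and 2 of them rose and 1, 1 and 0 fell, beside 5.24% and 2.49% of all genes. The 23, 22, 20 and 18 genes of glycolysis and hypoxia, NF-kB, endoplasmic reticulum stress and cholesterol synthesis also had no call without the block. With it 1, 1, 1 and 0 rose and 1, 0, 2 and 1 fell. The 21 dissociation stress genes, 11 mitochondrial transcripts and 19 integrins measured had no call without the block. Under the block 3, 1 and 1 rose and 1, 0 and 4 fell. Of 12 Fc receptor genes 1 rose (5 with the block), and of 17 IL-4 response genes 1 rose (2 with the block, and 1 fell). Of 29 lectin and scavenger receptor genes 2 fell (4 with the block, and 5 rose). These counts stand beside 1.21% of all genes that rose and 0.192% that fell, and 5.24% and 2.49% with the block. The 3 keratinocyte genes measured had no call in either fit.

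Set against the fusion protein alone, the combined treatment gave no gene past the threshold by limma, edgeR or DESeq2 (0% of 18274). At an unadjusted p under 0.05 there were 534 genes (2.92%) by limma, 493 by edgeR and 713 by DESeq2. With the replicate block 0 genes passed and 1880 had an unadjusted p under 0.05. All 53 type I interferon genes were higher in the combined group, beside 53.7% of all genes, with a median of 0.60, and none passed. In 5 of the 53 the groups did not overlap, beside 4.48% of all genes. Slfn4, at 22961, 1346 and 13883 in fusion protein libraries, differed by 1.69 ± 0.92 (SE) with a 95% interval from -0.33 to 3.70. The Ifi44 difference was 0.99 ± 0.45 (SE) with an interval from -0.00067 to 1.97, and that of Cd209a, at 58.2, 44.6 and 16.5 with fusion protein alone, was -0.04 ± 0.41 (SE) with an interval from -0.94 to 0.85. These intervals include 0 and reach up to 3.70 for Slfn4, so the absence of calls does not show that the 2 treatments act alike.

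The genes given next did not pass. In each direction they are the 4 of smallest p among genes whose groups did not overlap. A group mean of at least 50 and no predicted name were also required. Fmnl2, an actin nucleator, had 1042, 712 and 660.3 with fusion protein and 1783, 1208 and 1839 with the combined treatment, a difference of 1.00 ± 0.25 (SE). Aif1, a calcium-binding protein of macrophages, had 737, 782 and 746 and 1251, 995 and 1835, a difference of 0.80 ± 0.24 (SE). Mier3 and Palm differed by 0.57 ± 0.17 (SE) and 1.08 ± 0.33 (SE). Pglyrp1, a peptidoglycan-binding protein of granules, had 548, 491 and 617 and 385, 315 and 316, a difference of -0.70 ± 0.17 (SE). Mxd4, Cdan1 and Dab2ip differed by -0.75 ± 0.20 (SE), -0.61 ± 0.17 (SE) and -0.80 ± 0.23 (SE). None of the 8 overlapped between these groups, beside 4.48% of all genes above and 3.81% below, and the adjusted p was 1.00 for each. Neutrophil markers were higher than with fusion protein alone in 19 of 19 genes, with a median of 1.99, and 4 did not overlap. Against 20 Gy alone the neutrophil median was -0.08, with 9 of 19 higher. T cell markers were lower than with fusion protein alone in 24 of 25, with a median of -0.85, and 2 did not overlap. Class II presentation genes were higher in 15 of 15, with a median of 0.52, and 3 did not overlap. No gene of these 3 lists passed against fusion protein.

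Set against 20 Gy alone, 188 genes passed (1.03%), of which 154 rose (0.843%) and 34 fell (0.186%). The count was 86 and 79 without 20 Gy library 1 or 2, and 82 and 76 without combined library 1 or 3. No gene passed by limma without both combined libraries 1 and 3, where 1108 had an unadjusted p under 0.05. Of the 53 type I interferon genes 46 rose, all were higher and the median was 2.74. Ifi44 had 138, 137 and 289 in 20 Gy libraries, a difference of 5.05 ± 0.45 (SE) with an adjusted p of 0.00046 and with higher values in the combined group. Slfn4 had 605, 565 and 1557, a difference of 4.90 ± 0.92 (SE) with an adjusted p of 0.0291. Sct had 0, 2.14 and 9.16, the largest rise named here, with a difference of 5.57 ± 0.69 (SE). Fabp3, Adgrb1 and Prm1 rose by 5.34, 5.33 and 5.25. Leaving out 1 of the 6 libraries at a time, Ifi44 and Sct passed in all 6 fits, Adgrb1 in 3, Slfn4 and Fabp3 in 2 and Prm1 in 1.

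Cd209a had 1203, 1099 and 1040.5 in 20 Gy libraries, and fell by 4.99 with an adjusted p of 0.000355 in the combined group. Ngfr, Trf, Gprc5c and Fgfr1 also fell, by 3.87, 3.31, 2.95 and 2.80. P3h2, a collagen-modifying enzyme, had 243, 216 and 82.5 with 20 Gy and 19.8, 10.2 and 9.49 with the combined treatment, a fall of 3.61. Against untreated its difference was -2.53 ± 0.72 (SE) with an adjusted p of 0.146 without and 0.00677 with the block. Of these falls, Cd209a, Gprc5c and Fgfr1 passed in all 6 fits without one library, Trf in 5, P3h2 in 1 and Ngfr in none. All 28 cytotoxic and NK cell markers were higher than with 20 Gy alone, beside 48.4% of all genes, with a median of 1.01. Compared with fusion protein alone, 5 of the 28 were higher, beside 53.7% of all genes, with a median of -0.30 and no call. Against 20 Gy, Gzma and Klrg1, an inhibitory receptor of effector cells, passed, beside 0.843% of all genes that rose. Their differences were 2.16 (6 of 6 fits without 1 library) and 1.55 (1 of 6). Of the 24 class I genes 5 rose, beside 0.843% of all genes, with H2-T22 at 2.45 and H2-Q7 at 1.74. The list's median was 0.82. In the red cell list 9 of 10 genes were lower than with 20 Gy alone, with a median of -2.67 and no call.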

How the data were processed

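Total RNA of CD45+ CD11c+ cells sorted from B16-OVA tumours was sequenced in 12 libraries of 4 groups, 3 per group, from a stranded kit for low RNA input per the labels' protocols. Per the submitters' processing notes, the authors used FastQC, Trimmomatic, STAR with the mm10 build, featureCounts and DESeq2; versions, strand setting and other parameters were not found in the labels. Each deposited signal value is a gene count that the authors divided by the library's DESeq2 size factor. Whole reads were recovered from them in 100% of values (tolerance 0.001). GENCODE vM21 gave names for 55141 of 55401 identifiers (99.53%), and promoter sequences came from RefSeq on GRCm38.p6, for 156 of the 221 genes that rose and 26 of the 35 that fell.

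Genes with at least 10 normalized counts in at least 3 libraries were tested. Log2(normalized count + 1) of all 12 libraries in 4 groups was fitted with limma 3.58.1 in R 4.3.3 (trend, 8 residual degrees of freedom) with Benjamini-Hochberg adjustment and a threshold of 0.05. The script was tested on simulated data. Alternatives were other pseudocounts (0.5 and 5), filters (none and 50), TMM scaling, only the 6 libraries compared, a replicate block, library quality weights, the receptor gene level as a covariate, leaving out libraries, edgeR 4.0.16 and DESeq2 1.42.0. Leaving out both combined libraries 1 and 3, or the 4 libraries numbered 3, was added after seeing the data, and the lone combined library is then assumed to vary like the other groups.

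Labels give the groups the same replicate numbers without saying what a number shares. Deviations from the group means of same-numbered combined and untreated libraries correlated at 0.33, 0.36 and 0.39 across genes. Those of combined and fusion protein libraries correlated at 0.44, 0.41 and 0.48. The numbers were treated as pairing for these 2 comparisons, a choice drawn from these same data that the labels do not establish. Against 20 Gy the correlations were 0.50, 0.01 and 0.38, so the numbers were not treated as pairing there. P-values and counts with the block rest on this choice and are no independent support for a call. The block was 1 term in the fit of all 12 libraries, so it also applied to the 20 Gy libraries. The 256 calls against untreated come from the fit without the block. Values with the block are given where they change a call or a count by over 1.5 times. Libraries within a group differed by far more than counting noise, so none was treated as a repeat.

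The 44 gene lists, of 869 genes, and the comparison itself were chosen with earlier results of these data known. Genes are named by rule, starting with 10 chosen genes. Next are the 12 largest rises and falls past the threshold. Their groups do not overlap, a group mean is at least 50 and the name is not a predicted one. The other 2 comparisons give the 6 largest per direction under the same conditions. Where fewer than 4 pass there, the 4 of smallest p that meet these conditions are named. Each list that held a call or covers neutrophils, chemokines or cytokines gives up to 4 members of smallest p. The 5 promoters shown are those of named genes that rose with most matches to the response element. Counting intervals are 95% exact intervals of a ratio of reads and cover counting error only.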

Additional observations from a re-analysis of the deposited data

How the results depend on the processing

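Against untreated, all 256 called genes kept their direction under every alternative in which they were tested (240 genes under the filter of 50). The count of 256 became 149 with only the 6 libraries compared, 1413 with the replicate block, 1146 with quality weights, 755 with DESeq2, 5 without combined libraries 1 and 3 and 168 without the 4 libraries numbered 3, and 93 to 278 when 1 library was left out. It stayed within 1.5 times under the other 7 alternatives, from 181 with the receptor gene covariate to 270 with the filter of 50, with 200 by edgeR. With that covariate 157 of the 221 rises and 15 of the 35 falls still passed. Rises were 958 of 1413 genes with the block and 551 of 755 with DESeq2, against 221 of 256. Against fusion protein the count was 0 under every alternative run. Against 20 Gy, 188 became 834 with the replicate block, which these numbers do not pair, 836 with quality weights, 550 with DESeq2 (335 rose), 0 without combined libraries 1 and 3, and 76 to 201 when 1 library was left out. The block ended no call of a gene named here. Without a filter the median of all genes moved to 0.15.

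Log2 changes that turned sign belonged to genes that did not pass: Fmnl2 was 0.17 with weights, 0.05 and 0.042 without untreated library 1 or 3 and 0.17 without combined library 2. Ccr7 and Fscn1 were 0.50 and 0.60 with the covariate, 0.16 and 0.24 without combined library 1 (-0.94 and -0.81 at the other end of the range, without untreated library 1), and 0.024 and 0.32 without combined libraries 1 and 3. Cxcl9 was -0.38 and -0.42 without untreated library 1 or 2, -0.14 and -0.12 without combined library 2 or 3, -0.45 by edgeR and -0.46 by DESeq2, and reached 0.88 without untreated library 3. Itgax was 0.046 without untreated library 1 and -0.57 without untreated library 2, Il12b -0.34 without untreated library 2 and -0.17 without combined library 3 (1.31 without untreated library 3), and, without combined libraries 1 and 3, Foxp3 was 0.031 and Ido1 -0.44. The causes were not tested. With 3 libraries a group, the spread between libraries and not depth limits most comparisons; genes with under 10 reads in a group, such as Fabp3 and Aplnr in untreated libraries, are limited by counting.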

Other observations

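Rises stood together along the chromosomes. Of 220 risen genes with a position, 110 (50%) had another risen gene within 100000 bases, as did 875 of 18250 tested genes (4.8%). Overlapping gene models, such as Pde7b and Gm17229, counted as near, and the part of shared reads in these shares was not tested. Among the genes that fell, 1 of 35 (2.9%) had a risen gene that near. The share was 44.4% (64 of 144) for risen genes in none of the 44 lists. On chromosome 7, Cdhr5, an adhesion protein of epithelial brush borders, lies between Irf7 and Sct, 1544 bases from Sct, and rose by 3.71 on the log2 scale. On chromosome 11, Fbxo39 lies 711 bases from the interferon-response gene Xaf1 and rose by 3.78. The olfactory receptor genes Olfr432 and Olfr433 lie 4794 bases apart on chromosome 1, past the end of the Ifi200 cluster, and rose by 4.44 and 3.34. Against the same untreated libraries Olfr432 stood at 3.49 with 20 Gy and 2.44 with fusion protein, and Olfr433 at 2.10 and 2.43. Both belong to the chemosensory receptor genes, whose share with a read differed between libraries and was 79.0%, 59.0% and 13.1% in 20 Gy libraries 1 to 3. The part of this difference in the 2 rises was not tested separately. Next to Prm1 on chromosome 16, Tnp2 differed by 3.59 ± 0.85 (SE; adjusted p = 0.0731 by limma, 0.0179 with the block) and Socs1, a feedback inhibitor of interferon signalling, by 0.84 ± 0.93 (adjusted p = 0.792). The labels do not give the strand setting of the counting, and these genes were chosen after their values were seen.

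Gene families, also chosen after the values were seen, differed in how many members rose, beside 1.21% of all genes. All 4 Phf11 genes and all 3 Sp100 family genes passed, as did 5 of 6 Ifit genes, 7 of 8 Oas and Oasl genes (Oas1b is annotated as a polymorphic pseudogene) and 8 of 12 Ifi200 and Aim2 genes. Of 8 Schlafen genes 6 rose, and all 8 were higher. Of 12 Parp genes 4 rose, Parp9, Parp10, Parp12 and Parp14, while Parp1 and Parp2, which act in DNA repair, were not among them. Of 11 Gbp genes 4 rose (9 with the block) and all 11 were higher. Of 12 Toll-like receptor genes only Tlr9 passed without the block, and 6 passed with it. Of 5 Cd209 genes 2 fell, beside 0.192% of all genes, and their median was -3.88. Members of these families share sequence, and the labels do not say how reads were divided among them.

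Further genes, chosen after their values were seen, belong to no list. Ifi27 is named for induction by interferon, and its group mean was 311.6 in untreated and 116 in combined libraries, a fall of 1.43 on the log2 scale (SE 0.27; adjusted p = 0.0252 by limma). Il1f9, an interleukin 1 family member of skin and myeloid cells, rose by 4.95 from a mean of 3.19 to 102, and stood at 4.85 with 20 Gy alone against 2.37 with fusion protein alone. Fpr2, a formyl peptide receptor of neutrophils and monocytes, rose by 2.94 from a mean of 13.6 to 107, and stood at 2.74 with 20 Gy and 1.32 with fusion protein. Apod, a lipid-binding secreted protein, rose by 4.37 from a mean of 68.3 to 1231, and stood at 0.84 with 20 Gy and 2.95 with fusion protein. Sox4 and Anpep fell by 2.02 and 1.94, and stood at -1.79 and -2.14 with fusion protein. These single-treatment values share the untreated libraries, and differences between them were not tested.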
